A study of Mus musculus with 7 samples.

Results

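The genes of the interleukin-12 (IL-12) cytokine family, interferon gamma and interleukin-10 (IL-10), with 3 of their receptor chains, were followed in mouse spleen after injection of lipopolysaccharide (LPS), a component of the bacterial cell wall that drives inflammatory signalling through Toll-like receptors. The 10 genes were chosen by their symbols: Il12a, Il12b, Il23a, Il27, Ebi3, Ifng, Il12rb1, Il12rb2, Il10 and Il10ra. All 10 of the 10 symbols were found among the 17920 genes of the expression table, and 9 of them had a mean of at least 1 FPKM over the libraries and entered the tests with 11378 genes in all. Il23a did not reach that mean and is given by its values. FPKM counts fragments relative to transcript length and to the mapped fragments of the library, so that it corrects for both.

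The mice were C57BL/6 animals, 8 weeks old, either wild type or labelled GdX-/- (also written GdX-/Y). GdX, or UBL4A, is a ubiquitin-like protein encoded by the X-linked gene Ubl4a. All received LPS at 20 mg/kg into the peritoneal cavity, and the spleen was taken after 90 min or 6 h. Wild type had 2 libraries at 90 min and 2 at 6 h, GdX-deficient spleen had 2 at 90 min and 1 at 6 h, and the study's design counts 4 wild-type and 3 GdX-deficient mice. Unstimulated spleen was not analysed here, so that levels are compared between genotypes and times after LPS and not with a resting state. The samples are labelled as splenocytes, and the protocol describes whole spleen homogenised for RNA extraction. Which cells lack GdX, and how the allele was made, is not given in the sources used here.

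The IL-12 family is built from shared subunits. IL-12 pairs the products of Il12a (p35) and Il12b (p40), IL-23 pairs the products of Il23a (p19) and Il12b, and IL-27 pairs the products of Il27 (p28) and Ebi3. Macrophages and dendritic cells make these cytokines after microbial stimulation. IL-12 acts through the receptor chains encoded by Il12rb1 and Il12rb2 on natural killer (NK) and T cells and drives them to make interferon gamma, which activates macrophages. IL-10, acting through a receptor that contains the product of Il10ra, restrains the production of these cytokines.

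The libraries were looked at before the results. Ubl4a itself stood at 5.62 and 7.50 FPKM in wild type and 4.03 and 5.69 FPKM in GdX-deficient spleen at 90 min, and at 11.9 and 14.0 against 10.6 FPKM at 6 h, so that its values overlapped at 90 min. Gm44504, a predicted gene that overlaps Ubl4a on chromosome X, stood at 14.5 to 51.1 FPKM in the wild-type libraries and 0.66 to 1.86 FPKM in the GdX-deficient libraries, so that the sum of both, carried by Gm44504, was lower in GdX-deficient spleen at either time. The level of Ubl4a alone thus did not separate the genotypes at 90 min and does not check the labels there, and which part of the locus the allele removes was not tested. GdX-deficient is used here for the libraries labelled GdX-/-. The estimated depth was 17700000 to 20000000 mapped fragments per library, and globin genes took 7.73% to 30.9% of the summed FPKM. GdX-deficient replicate 2 at 90 min stood apart: the summed FPKM of 6 neutrophil markers was 4683 there and 680 to 1063 in the other 90 min libraries. The GdX-deficient library at 6 h also had more neutrophil marker signal (2560 against 738 and 1058 in wild type) and more B cell marker signal (1814 against 500 and 557). Red cell precursor markers summed to 1222 and 1021 FPKM in GdX-deficient spleen against 550 and 623 FPKM in wild type at 90 min, and to 604 against 199 and 271 FPKM at 6 h. No marker of the T cell, NK cell, B cell, dendritic cell, macrophage or neutrophil list was at 0 in any library, whereas all 6 pancreas markers were at 0 in at least 1 library and summed to at most 0.97 FPKM. In RNA of a whole spleen, fewer cells of a type and less RNA per cell cannot be told apart. Genotype differences of the members at 90 min are therefore given with and without GdX-deficient replicate 2, and every value of GdX-deficient spleen at 6 h rests on 1 library.

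The messages of most of these cytokines, Ebi3 excepted, carry several copies of an AU-rich sequence, the kind of element that RNA-decay factors recognise in short-lived inflammatory transcripts. The pentamer ATTTA was counted in the 3′ untranslated region (UTR) of the transcript with the longest coding part of each gene in GENCODE M21 (GRCm38). Il12a, Il23a, Il12b, Ifng and Il10 had 6 copies each, Il27 had 5, Il10ra had 3 and Ebi3 had 1. Il12rb1 and Il12rb2 had 0. Of 20623 genes with a 3′ UTR, 14.8% had at least 6 copies and 19% had at least 5, and the median gene had 1. Per 1000 bases the count was 17.5 for Il27, 12.1 for Il12a, 9.51 for Ifng, 9.13 for Il23a, 8.50 for Il10, 7.75 for Il12b, 4.08 for Ebi3 and 1.77 for Il10ra, against 1.94 over all genes together. The 30-base windows richest in the pentamer are shown for the 4 cytokine genes with 3 or more copies in such a window, written on the transcript strand as DNA with each ATTTA in capitals. The window lies at bases 69 to 98 of the 631 of the Ifng UTR, 237 to 266 of the 774 of Il12b, 384 to 413 of the 497 of Il12a and 176 to 205 of the 285 of Il27.
Ifng: aacctATTTAttaatATTTAaaactATTTA
Il12b: ATTTAagtaATTTAtgtATTTAttaATTTA
Il12a: gcctATTTAtATTTATTTAttttctATTTA
Il27: ccagatATTTAtttcttggatATTTATTTA
A match describes the letters of the sequence, and no binding or decay was measured.

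**Figure D1:**
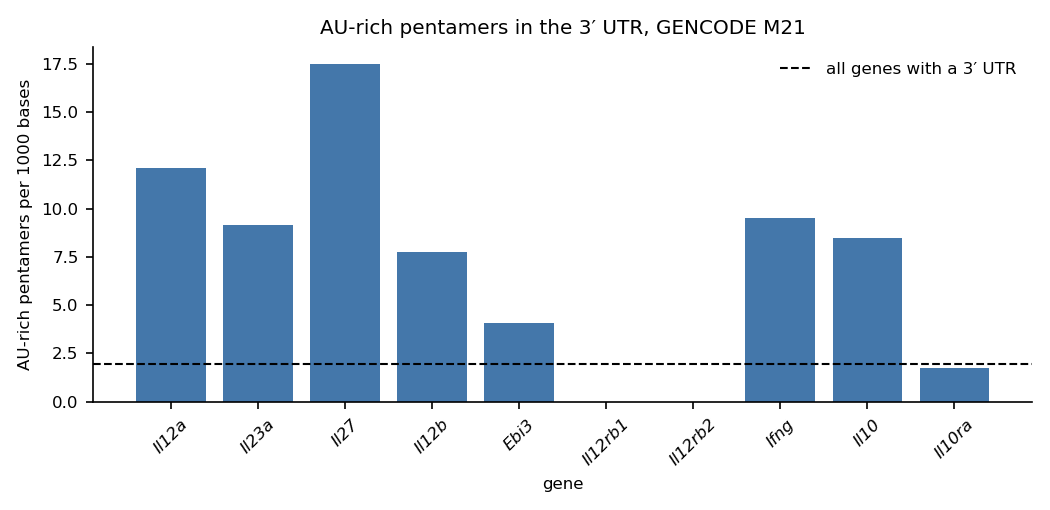
Copies of the pentamer ATTTA per 1000 bases of 3′ UTR for the 10 genes (bars), with the value over all genes with a 3′ UTR as a dashed line at 1.94. Il27 stands highest at 17.5, the receptor chains Il12rb1 and Il12rb2 are at 0, and Il10ra is at 1.77.

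Promoters were available for Ebi3, Ifng, Il12a, Il12b and Il12rb2 (5 genes, 6 entries) from RefSeq on GRCm38.p6. Shown are the 250 bases before the start site of Ifng and Il12b, the members that changed most in the comparisons that follow, both on the plus strand, with matches to the searched motifs in capitals.
Ifng, chr10:118440796-118441045: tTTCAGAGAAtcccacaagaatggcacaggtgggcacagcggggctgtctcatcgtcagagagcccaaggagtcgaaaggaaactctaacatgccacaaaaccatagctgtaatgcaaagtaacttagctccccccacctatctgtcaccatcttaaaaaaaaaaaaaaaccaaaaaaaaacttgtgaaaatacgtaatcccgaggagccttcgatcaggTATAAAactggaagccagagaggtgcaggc
Il12b, chr11:44399813-44400062: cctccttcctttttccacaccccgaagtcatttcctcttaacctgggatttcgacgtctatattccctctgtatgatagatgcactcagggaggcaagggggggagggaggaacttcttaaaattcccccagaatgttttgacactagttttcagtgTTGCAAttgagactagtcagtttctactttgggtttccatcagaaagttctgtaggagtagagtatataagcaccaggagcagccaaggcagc
The motifs searched on both strands were the interferon-regulatory element GAAANNGAA, the C/EBP core TTGCAA, the AP-1 site TGANTCA, the T-box site AGGTGTGA, the STAT site GAS (TTCNNNGAA), the TATA box TATAAA and the NF-kB consensus. The Ifng promoter held a GAS match from base -249 to -241 before the start site and a TATA box from -30 to -25, which 7.02% and 12.4% of all promoters of this length held. The Il12b promoter held a C/EBP core from -93 to -88, present in 5.34% of promoters. Of the others, Il12a held a C/EBP core from -155 to -150, Il12rb2 a GAS match from -123 to -115 and Ebi3 an NF-kB consensus match from -44 to -35, the last in 3.9% of promoters. These matches are descriptions of the sequence and not binding sites.

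Il12b, the shared p40 subunit (Entrez gene 16160, chr11:44400063-44414677 in RefSeq on GRCm38.p6), was the member that fell most with time. It stood at 62.1 and 52.8 FPKM in wild type and 38.9 and 3.76 FPKM in GdX-deficient spleen at 90 min. At 6 h it stood at 2.65 and 3.83 FPKM in wild type and 1.31 FPKM in the GdX-deficient library. Both wild-type libraries at 90 min lay far above both at 6 h, and the GdX-deficient libraries at 90 min were spread over most of that range. In wild type the mean went from 57.4 ± 6.58 (SD, n = 2) to 3.24 ± 0.834 FPKM (SD, n = 2), a change of -3.79 on the log2(FPKM + 1) scale (SE 0.77, adjusted p = 0.017, limma with Benjamini-Hochberg adjustment). With no filter on low values the adjusted p in limma was 0.0995, with the same change. On the scale log2(FPKM + 1), used for every log2 value here, the change of a gene with low values is understated.

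Il12a, the p35 subunit found only in IL-12 and IL-35 (Entrez gene 16159, chr3:68690644-68698550), was flat by comparison. Its values were 7.21 and 6.51 FPKM in wild type and 6.03 and 4.91 FPKM in GdX-deficient spleen at 90 min. At 6 h they were 6.23 and 9.26 FPKM in wild type and 3.64 FPKM in GdX-deficient spleen. The wild-type times overlapped, and the GdX-deficient values lay below the wild-type values at each time. No comparison of Il12a passed the threshold in limma, and the adjusted p was 0.815 for time in wild type, 0.722 for genotype at 90 min and 0.158 for genotype at 6 h.

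FPKM is per length, so that the level of one subunit can be set against that of its partner within a library. The FPKM ratio of Il12b to Il12a was 8.61 and 8.11 in wild type and 6.45 and 0.766 in GdX-deficient spleen at 90 min. At 6 h it was 0.425 and 0.414 in wild type and 0.360 in the GdX-deficient library. The message of the shared subunit therefore exceeded that of p35 in 3 of the 4 libraries at 90 min and in 0 of the 3 libraries at 6 h, and GdX-deficient replicate 2 at 90 min was the early library with the ratio below 1.

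**Figure D2:**
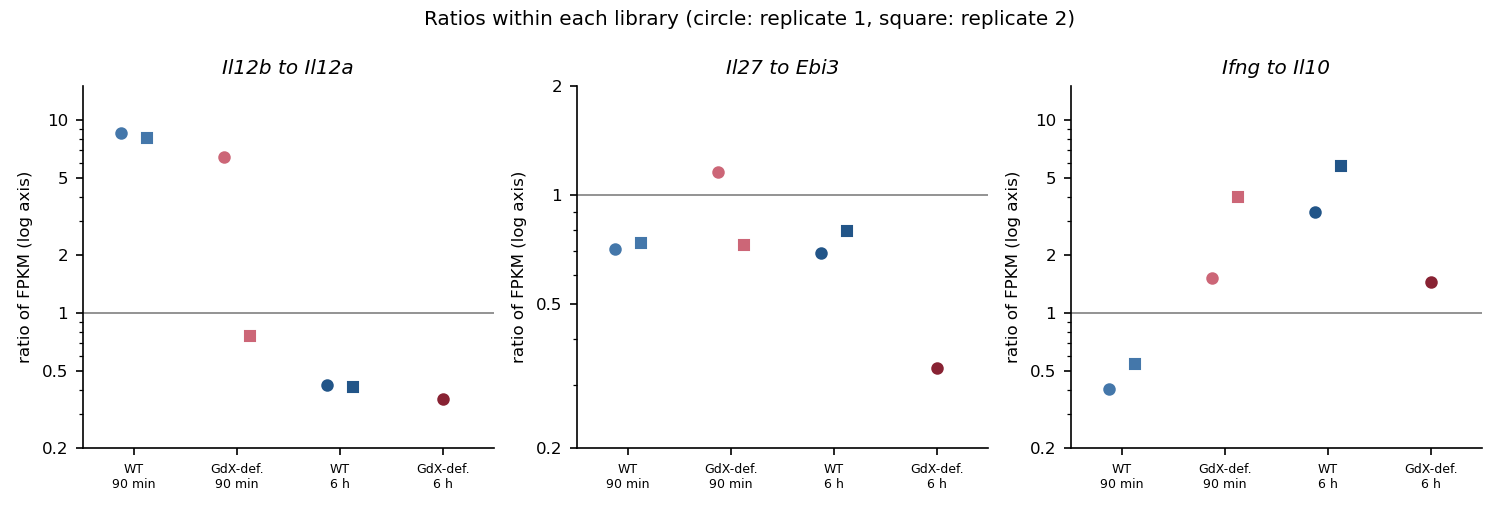
Ratio of the FPKM values of a pair of genes within each library on a log axis, for Il12b to Il12a, Il27 to Ebi3 and Ifng to Il10; circles are replicate 1, squares are replicate 2 and the grey line marks a ratio of 1. Il12b exceeds Il12a in 3 of the 4 libraries at 90 min and in none of the 3 at 6 h, and the lowest Il27 to Ebi3 ratio is the GdX-deficient library at 6 h (0.333).

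Il23a, the p19 subunit of IL-23 (Entrez gene 83430, chr10:128296140-128298084), was the lowest of the 10 genes. It stood at 1.51 and 2.45 FPKM in wild type and 1.19 and 0.71 FPKM in GdX-deficient spleen at 90 min, and at 0.14, 0.14 and 0.19 FPKM in the 3 libraries at 6 h. These levels correspond to an estimated 17 to 66 fragments per library at 90 min and 4 to 5 at 6 h. The 90 min libraries lay above every 6 h library in both genotypes, and at 90 min the GdX-deficient values lay below the wild-type values. In the fit with no filter on low values, the only one that holds this gene, Il23a fell with time in wild type by 1.37 on the log2 scale (SE 0.20, adjusted p = 0.0426, limma), and the genotype difference at 90 min was -0.60 (SE 0.20, adjusted p = 0.584, limma). That fit was repeated without each library in turn, an alternative chosen after seeing the data. The change with time passed without the GdX-deficient library at 6 h (adjusted p = 0.0444) and did not pass without any 1 of the other 6 libraries (adjusted p = 0.076 to 0.188 in limma, differences of -1.60 to -1.14). The genotype difference at 90 min was -0.43 (adjusted p = 0.976) without GdX-deficient replicate 2 and -0.78 (adjusted p = 0.287, limma) without replicate 1. The FPKM ratio of Il12b to Il23a was 41.1 and 21.5 in wild type and 32.7 and 5.30 in GdX-deficient spleen at 90 min. At 6 h Il23a lay below the 0.5 FPKM set for ratios.

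Il27, the p28 subunit (Entrez gene 246779, chr7:126589009-126595035), and Ebi3, its partner in IL-27 (Entrez gene 50498, chr17:55952623-55957022), were the most abundant of the cytokine messages by their mean over the 7 libraries. Il27 stood at 65.5 and 81.8 FPKM in wild type and 95.2 and 24.97 FPKM in GdX-deficient spleen at 90 min, then, at 6 h, at 48.9 and 50.1 FPKM in wild type and 12.0 FPKM in GdX-deficient spleen. At 90 min the GdX-deficient libraries lay on either side of wild type, with the highest and the lowest value, and at 6 h the GdX-deficient library lay below both wild-type libraries. The 6 h difference of -1.96 (SE 0.61) on the log2 scale had an adjusted p of 0.0887 in limma and did not pass. Ebi3 stood at 92.6 and 111 FPKM in wild type and 82.4 and 34.3 FPKM in GdX-deficient spleen at 90 min, then at 70.7 and 62.9 against 36.1 FPKM at 6 h. Its values in GdX-deficient spleen lay below the wild-type values at each time. The difference of -0.92 (SE 0.37) at 90 min and of -0.87 (SE 0.46) at 6 h had adjusted p-values of 0.621 and 0.243 in limma. With time as a covariate the genotype difference was -1.13 (SE 0.42, adjusted p = 0.134) for Il27 and -0.90 (SE 0.28, adjusted p = 0.111) for Ebi3 in limma.

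The FPKM ratio of Il27 to Ebi3 was alike in the 4 wild-type libraries, at 0.708 and 0.737 at 90 min and 0.692 and 0.797 at 6 h. In GdX-deficient spleen it was 1.16 and 0.727 at 90 min and 0.333 at 6 h. The ratio of Il12a to Ebi3, the chains of IL-35, lay between 0.0587 and 0.147 in all 7 libraries.

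Il12rb1, the receptor chain shared by IL-12 and IL-23 (Entrez gene 16161, chr8:70808360-70823542), rose with time. It stood at 2.39 and 4.20 FPKM in wild type and 4.68 and 4.21 FPKM in GdX-deficient spleen at 90 min, then, at 6 h, at 15.1 and 18.2 FPKM in wild type and 11.1 FPKM in GdX-deficient spleen. Every 6 h library lay above every 90 min library. In wild type the mean went from 3.30 ± 1.28 (SD, n = 2) to 16.6 ± 2.26 FPKM (SD, n = 2), a rise of 2.07 on the log2 scale (SE 0.32, adjusted p = 0.0065, limma). Genotype did not pass for Il12rb1 at either time, with differences of 0.37 (SE 0.32, adjusted p = 0.668) at 90 min and -0.53 (SE 0.39, adjusted p = 0.384) at 6 h in limma.

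Il12rb2, the second IL-12 receptor chain, found on NK cells and activated T cells (Entrez gene 16162, chr6:67285986-67376293), had a wide spread between replicates. It stood at 1.55 and 3.18 FPKM in wild type and 4.32 and 3.95 FPKM in GdX-deficient spleen at 90 min, then, at 6 h, at 1.97 and 7.01 FPKM in wild type and 3.42 FPKM in GdX-deficient spleen. The GdX-deficient values lay above both wild-type values at 90 min and between them at 6 h. None of its comparisons passed in limma in the main fit, with an adjusted p of 0.64 for genotype at 90 min and 0.442 for time in wild type. The change with time in wild type was 0.58 on the log2 scale, and ranged from -0.14 to 1.29 on leaving out 1 library.

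Ifng, interferon gamma (Entrez gene 15978, chr10:118441046-118445894), was the member with the largest difference between genotypes. It stood at 9.53 and 10.1 FPKM in wild type and 18.7 and 7.86 FPKM in GdX-deficient spleen at 90 min. At 6 h it stood at 35.8 and 42.3 FPKM in wild type and 1.99 FPKM in the GdX-deficient library, an estimated 865 and 1012 fragments against 46. The GdX-deficient libraries lay on either side of wild type at 90 min, and at 6 h the GdX-deficient library had the lowest value of all 7. In wild type Ifng rose from 9.80 ± 0.382 (SD, n = 2) to 39.1 ± 4.62 FPKM (SD, n = 2), by 1.89 on the log2 scale (SE 0.38, adjusted p = 0.0167, limma). With no filter on low values the adjusted p of that change was 0.072 in limma and it did not pass. In GdX-deficient spleen the 6 h library lay below both 90 min libraries, with a difference of -2.14 on the log2 scale, a comparison that is described here and not tested.

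At 6 h Ifng was lower in the GdX-deficient library, with a difference of -3.74 on the log2 scale (SE 0.46, adjusted p = 0.0082, limma), a test that assumes that the lone library varies like the other groups. Over the 12 alternative settings that difference ranged from -4.22 to -3.62 and its adjusted p in limma from 1.38e-05 to 0.0548, the highest with no filter on low values. The difference between the genotype effects at 6 h and 90 min was -4.03 (SE 0.60, unadjusted p = 7.15e-05, adjusted p = 0.0626, limma) and did not pass. Leaving out GdX-deficient replicate 2 or replicate 1 at 90 min, it was -4.61 (adjusted p = 0.136) or -3.45 (adjusted p = 0.221) in limma. At 6 h the summed NK cell markers were 260 and 207 FPKM in wild type and 283 FPKM in GdX-deficient spleen (67.3 and 71.8 against 130 FPKM without Gzma), and the summed T cell markers were 154 and 131 against 277 FPKM. At that time the GdX-deficient library had the lowest Ifng and the highest sum of both lists. The part of NK and T cell signal in the Ifng values was not tested.

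Il10 (Entrez gene 16153, chr1:131019845-131024970) was low in every GdX-deficient library relative to wild type at the same time. It stood at 23.4 and 18.4 FPKM in wild type and 12.2 and 1.96 FPKM in GdX-deficient spleen at 90 min, then at 10.7 and 7.33 against 1.37 FPKM at 6 h. The groups did not overlap at either time. The genotype difference on the log2 scale was -1.80 at 90 min (SE 0.59, adjusted p = 0.573), -2.06 at 6 h (SE 0.72, adjusted p = 0.108) and -1.90 with time as a covariate (SE 0.43, adjusted p = 0.101), and none passed in limma. Without GdX-deficient replicate 2 the 90 min difference was -0.72 (adjusted p = 0.999), and without replicate 1 it was -2.88 (adjusted p = 0.0835, limma). The FPKM ratio of Ifng to Il10 was 0.407 and 0.547 in wild type and 1.53 and 4.01 in GdX-deficient spleen at 90 min, then 3.34 and 5.77 against 1.45 at 6 h.

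Il10ra, the ligand-binding chain of the IL-10 receptor (Entrez gene 16154, chr9:45253837-45269149), stood at 81.1 and 84.7 FPKM in wild type and 73.9 and 91.6 FPKM in GdX-deficient spleen at 90 min. At 6 h it stood at 44.95 and 51.5 FPKM in wild type and 63.3 FPKM in the GdX-deficient library. The genotypes overlapped at 90 min, and both wild-type libraries at 6 h lay below every 90 min library. The change with time in wild type was -0.77 on the log2 scale (SE 0.24, adjusted p = 0.0747, limma). The genotype difference at 90 min was -0.01 (SE 0.24), which became 0.13 after quantile normalization and 0.20 after rescaling without globin genes.

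**Figure D3:**
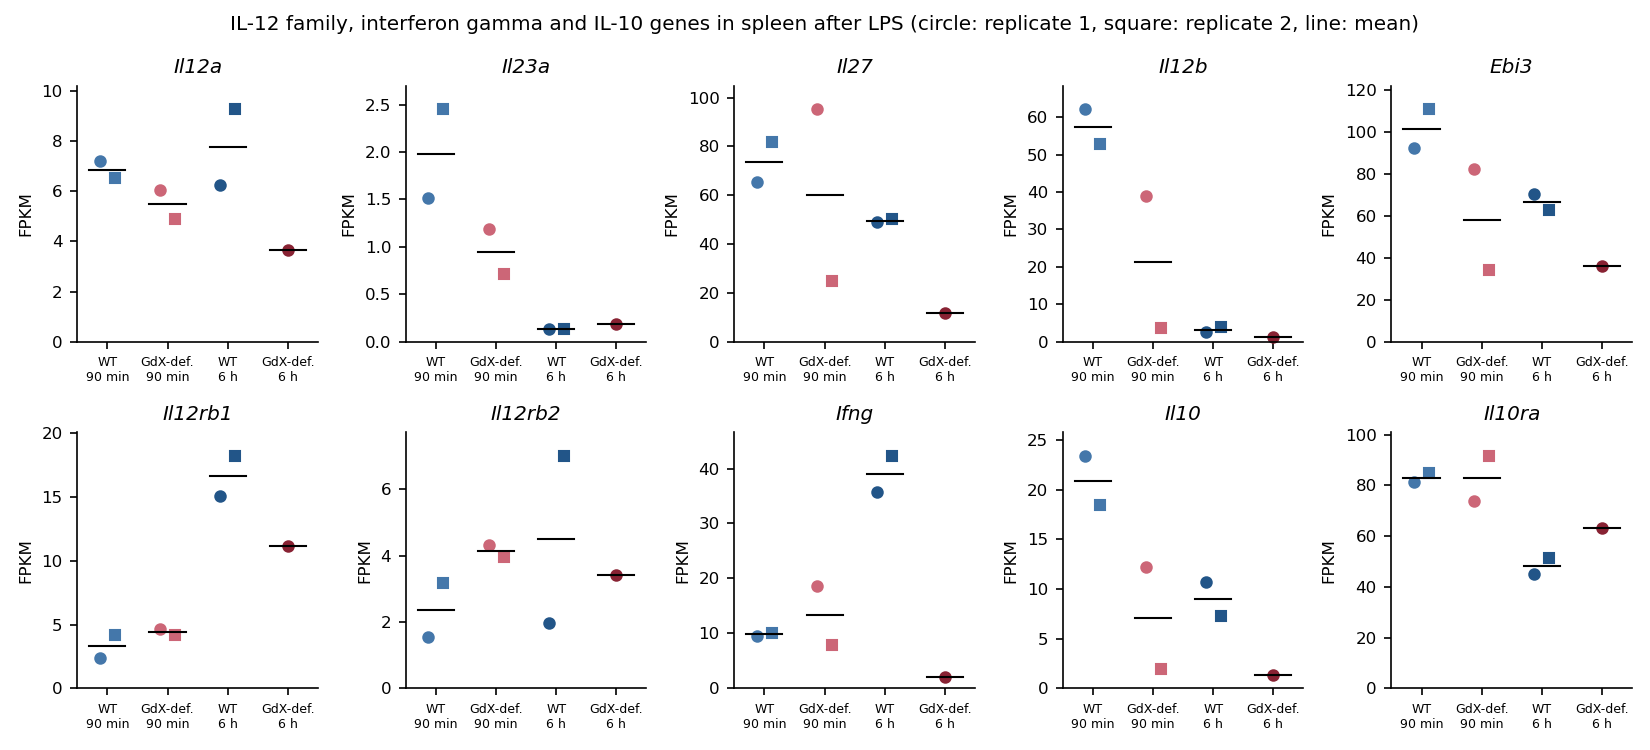
FPKM of each of the 10 genes in each library, by genotype and time after LPS; circles are replicate 1, squares are replicate 2 and horizontal lines are group means (1 library for GdX-deficient spleen at 6 h). Il12b and Il23a are high at 90 min, Il12rb1 is high at 6 h, and Ifng is at 35.8 and 42.3 FPKM in wild type against 1.99 FPKM in the late GdX-deficient library.

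As a group, the members were first compared between genotypes at 90 min. In limma 0 of the 9 tested members passed, against 0.0176% of all genes (2 of 11378), and 3 members, Il12b, Ebi3 and Il10, had an unadjusted p under 0.05, all with lower values in GdX-deficient spleen, where 4.41% of all genes were lower by that measure and 3.16% higher. The median log2 difference was -0.28 over the members and 0.07 over all genes tested. Both GdX-deficient libraries lay below both wild-type libraries for 4 of the 9 members (Ebi3, Il10, Il12a and Il12b), where 23.4% of all genes did so, and above them for 2 (Il12rb1 and Il12rb2), where 24.1% did. After rescaling without globin genes, 2 of these 4, Il10 and Il12b, still lay below, where 12.7% of all genes did. The lower values of Il12b, Il10, Ebi3 and Il12a were less marked without GdX-deficient replicate 2 than without replicate 1. The higher values of Il12rb1 and Il12rb2 were slightly more marked without replicate 2. The Il12b difference was -2.08 (SE 0.77, adjusted p = 0.621, limma) with both libraries, -0.55 (adjusted p = 0.999) without replicate 2 and -3.61 (adjusted p = 0.0347) without replicate 1. For Ifng and Il27 the sign turned: without replicate 2 the difference was 0.87 and 0.37, and without replicate 1 it was -0.29 and -1.51. Without replicate 2 and without replicate 1, the difference was -0.30 and -1.53 for Ebi3 and -0.16 and -0.41 for Il12a. In the same order it was 0.44 and 0.31 for Il12rb1, 0.70 and 0.60 for Il12rb2 and -0.16 and 0.14 for Il10ra. In a fit of the 4 libraries at 90 min alone, 2 members, Il10 (adjusted p = 0.0287) and Il12b (adjusted p = 0.0305), passed in limma with the same differences, where 1.59% of all genes passed. They also passed when wild-type replicate 1 or 2 at 6 h was left out, where 1.52% and 1.61% of all genes passed. Neutrophil marker signal was highest in replicate 2, and of 6 red cell precursor markers 5 had an unadjusted p under 0.05 with higher values in GdX-deficient spleen. All 8 NK cell markers were also fitted higher in GdX-deficient spleen at 90 min (median 0.54), where 6430 of 11378 genes were. Of the 8, 3 had an unadjusted p under 0.05 in limma (Ncr1 at 1.29, Klrk1 at 0.86 and Prf1 at 0.85) and 0 passed the threshold. Their sum was 220 and 257 FPKM against 189 and 181 FPKM in wild type. Macrophage markers summed to 576 and 530 FPKM in GdX-deficient spleen against 661 and 677 FPKM in wild type, with 5 of 8 fitted lower. Dendritic cell markers summed to 85.5 and 76.2 against 106 and 100 FPKM, with 5 of 7 tested markers fitted lower. Without Batf3 the dendritic cell sum was 38.8 and 47.1 against 47.0 and 49.8 FPKM. Of all 11378 genes, 4948 were fitted lower at 90 min. The part of all these markers in the values of Il12rb1, Il12rb2, Ifng and the other members was not tested.

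With time as a covariate, which sets the 3 GdX-deficient libraries against the 4 wild-type libraries, 0 of the 9 members passed in limma, against 0.0439% of all genes. Il12b, Il27, Ebi3 and Il10 had an unadjusted p under 0.05, all with lower values in GdX-deficient spleen, where 9.19% of all genes were lower by that measure and 17.8% higher. The median log2 difference was -0.90 over the members and 0.16 over all genes. Without GdX-deficient replicate 1 at 90 min, 4 members, Ebi3, Il10, Il12b and Il27, passed in limma, where 14.7% of all genes passed. Without wild-type replicate 2 at 90 min 1 member passed (Il10), where 2.13% of all genes did, and without GdX-deficient replicate 2 at 90 min 0 passed, where 0.0615% did. The difference was -1.59 for Il12b (SE 0.58, adjusted p = 0.129) and -1.32 for Ifng (SE 0.66, adjusted p = 0.221) in limma. By the same fit all 8 NK cell markers were fitted higher (median 0.63), where 7073 of 11378 genes were. Of the 8, 5 had an unadjusted p under 0.05 and 0 passed the threshold in limma, beside the 17.8% of all genes that were higher by the unadjusted p.

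Time after LPS in wild type gave 3 of 9 members past the threshold in limma, where 10.7% of all genes passed: Ifng and Il12rb1 rose and Il12b fell. The median log2 change of the members was -0.56, against 0.05 for all genes. Leaving out either GdX-deficient library at 90 min kept the same 3 members past the threshold, where 9.54% and 9.57% of all genes passed. With no filter on low values Ifng (adjusted p = 0.072) and Il12b (adjusted p = 0.0995) did not pass in limma, while Il12rb1 and Il23a did, where 3.54% of all genes passed. Marker signal moved with time as well. In wild type the summed T cell markers were 357 and 302 FPKM early and 154 and 131 FPKM late, and 4 of 6 fell in limma. B cell markers summed to 1458 and 1351 and then to 500 and 557 FPKM (1 of 6 fell), and red cell precursor markers to 550 and 623 and then to 199 and 271 FPKM (5 of 6 fell, median -1.58). Of 7 tested dendritic cell markers 5 fell, and of 8 macrophage markers 3 fell. The dendritic cell sum was 106 and 100 and then 98.5 and 57.8 FPKM, and without its most abundant marker Batf3 it was 47.0 and 49.8 and then 18.9 and 21.7 FPKM. The NK cell sum was 189 and 181 and then 260 and 207 FPKM, and without Gzma, its most abundant marker, it was 82.8 and 92.0 and then 67.3 and 71.8 FPKM. Of the 8 NK cell markers 6 were fitted lower, where 5337 of 11378 genes were, and 1 fell past the threshold. The part of these shifts in the members' changes was not tested. With genotype as a covariate, 2 of 9 members passed (5.44% of all genes): Il12b fell by 3.31 (SE 0.58, adjusted p = 0.015) and Il12rb1 rose by 1.70 (SE 0.28, adjusted p = 0.0118) in limma, and Ifng had a change of 0.27 (SE 0.66, adjusted p = 0.816). That Ifng change was 1.89 without the GdX-deficient library at 6 h.

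In GdX-deficient spleen alone, the 6 h library lay below both 90 min libraries and at least 2-fold below their mean on the log2(FPKM + 1) scale for 4 of 9 members, Ifng, Il10, Il12b and Il27, where 1.64% of all genes did so. It lay above by the same measure for Il12rb1, 1 of 9, where 4.09% did. The differences were -2.58 for Il12b, -2.14 for Ifng, -1.94 for Il27, -1.40 for Il10 and 1.16 for Il12rb1 on the log2 scale. In wild type the corresponding changes were -3.79, 1.89, -0.56, -1.14 and 2.07, so that Ifng is the gene of these 5 whose sign differed. Without GdX-deficient replicate 1 at 90 min, the count of 4 became 2, where 1.2% of all genes met the rule, and without replicate 2 it became 5, where 2.91% did.

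At 6 h, 1 of 9 members, Ifng, passed between genotypes in limma, where 3.96% of all genes passed, and Ifng, Il27, Il10 and Il12a had an unadjusted p under 0.05 with lower values in the GdX-deficient library, where 8.15% of all genes were lower by that measure and 20.3% higher. Leaving out any 1 of the other 6 libraries, GdX-deficient replicate 2 at 90 min among them, Ifng and Il27 passed each time and Il10 passed each time but without wild-type replicate 1 at 6 h. In these 6 fits 5.51% to 26.7% of all genes passed. The GdX-deficient library lay below both wild-type libraries and at least 2-fold below their mean for 3 of 9 members, Ifng, Il10 and Il27, where 5.47% of all genes did so, and above by that measure for 0 of 9, where 16.5% did. The median log2 difference was -0.87 over the members and 0.32 over all genes, and the latter was -0.02 after quantile normalization and 0.59 after rescaling without globin genes. Of all 11378 genes, 7536 were fitted higher in the GdX-deficient library at 6 h. Of the cells that make IL-12 family cytokines, the summed macrophage markers were above wild type in that library (790 against 527 and 429 FPKM) and the summed dendritic cell markers lay between the wild-type values (76.5 against 98.5 and 57.8 FPKM). Without Batf3 the dendritic cell sum was 41.6 against 18.9 and 21.7 FPKM, and 6 of 7 tested dendritic cell markers were fitted higher (median 0.84), with Itgax past the threshold (1.84, adjusted p = 0.0364, limma). Of the 6 red cell precursor markers 4 were higher past the threshold (median 1.98). The part of the higher neutrophil, B cell, dendritic cell and red cell precursor marker signal in these values was not tested. The remaining differences were -0.89 for Il12a, -0.87 for Ebi3, -0.86 for Il12b, -0.53 for Il12rb1, 0.39 for Il10ra and -0.14 for Il12rb2, the last 0.09 after rescaling without globin genes. For the difference of genotype effects between the times, 0 of 9 members passed in limma, against 0.0703% of all genes, and Ifng, 1 of 9, was the member with an unadjusted p under 0.05, where 9.98% of all genes had one (1.56% with a negative value). Ifng passed in this comparison when any 1 of the 4 wild-type libraries was left out, where 0.167% to 2.09% of all genes passed, and did not when either GdX-deficient library at 90 min was.

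**Figure D4:**
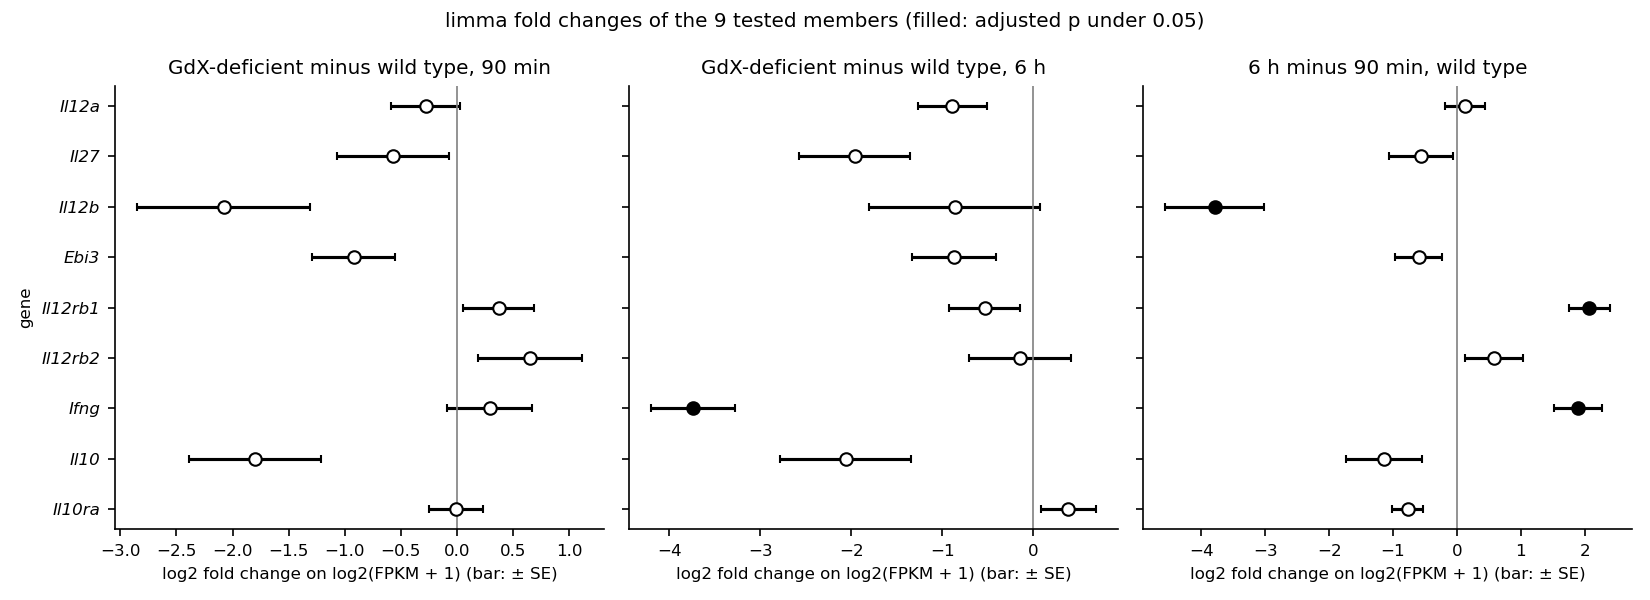
limma differences of the 9 tested members on the log2(FPKM + 1) scale (points) with standard errors (bars), for genotype at 90 min, genotype at 6 h and time in wild type; filled points have an adjusted p under 0.05. Filled points are Ifng at 6 h (-3.74) and, for time, Il12b (-3.79), Il12rb1 (2.07) and Ifng (1.89).

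Genes that work with the members were described in fixed lists. Of 14 transcription factors and inducers of these cytokines, all tested, Tbx21, which encodes T-bet, the factor that drives Ifng in NK and T cells, rose with time in wild type and Nfkbiz, which encodes an NF-kB cofactor, fell. In wild type Tbx21 stood at 5.30 and 8.26 FPKM early and at 24.9 and 33.7 FPKM late, and at 9.85, 7.73 and 8.01 FPKM in the GdX-deficient libraries. Both wild-type libraries at 6 h thus lay above all others. The rise with time was 1.97 (SE 0.32, adjusted p = 0.00766), the change of Nfkbiz was -1.98 (adjusted p = 0.0499), and at 6 h Tbx21 was lower in the GdX-deficient library, with a difference of -1.74 (SE 0.39, adjusted p = 0.0456) in limma. Without GdX-deficient replicate 2 or replicate 1 at 90 min the adjusted p of the Tbx21 difference at 6 h was 0.054 or 0.0547 in limma. Tbx21 was the 1 called gene of the list at 6 h, and the median difference of the list was -0.32, against 0.32 for all genes.

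Of 12 genes induced by interferon gamma, 11 were tested. With time in wild type, 2 rose and 1 fell: the chemokine gene Cxcl9 rose by 1.45 (adjusted p = 0.00873), Gbp2, a guanylate-binding protein gene, by 1.69 (adjusted p = 0.0122), and Cd74, the invariant chain of antigen presentation, fell by 1.58 (adjusted p = 0.021) in limma. At 6 h, Cxcl10 was lower in the GdX-deficient library, with a difference of -1.90 (adjusted p = 0.0435), and Ciita, the transactivator of class II genes, was higher by 2.79 (adjusted p = 0.0382) in limma. Cxcl10 then stood at 1394 and 1304 FPKM in wild type and 360 FPKM in GdX-deficient spleen. Ciita stood at 3.19 and 7.53 against 40.2 FPKM, and B cells, which express Ciita constitutively, had summed markers of 500 and 557 against 1814 FPKM in the same libraries. The part of B cell signal in the Ciita difference was not tested. The median difference of the list at 6 h was -0.35, against 0.32 for all genes. Of its values 9 of 11 lay below 0, where 3842 of 11378 genes did.

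Of 12 receptor and signalling genes, 11 were tested. Il27ra, the IL-27 receptor chain, fell with time in wild type by 1.59 (adjusted p = 0.0201) and Stat4, the transcription factor of IL-12 signalling, fell by 1.00 (adjusted p = 0.0462) in limma. At 6 h Il27ra was higher in the GdX-deficient library by 1.87 (adjusted p = 0.0435, limma), at 24.1 FPKM, where the wild-type libraries had 4.38 and 7.80 FPKM. Of 8 genes induced by IL-10 and STAT3, Socs3, a feedback inhibitor of cytokine signalling, fell with time in wild type by 1.76 (adjusted p = 0.0387, limma), and none passed for genotype at 6 h, where 1 had an unadjusted p under 0.05.

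Of 6 genes downstream of IL-23, 2 were tested, and Csf2 fell with time in wild type by 1.29 (adjusted p = 0.0345, limma). Il22 stood at 4.74 and 4.05 FPKM in wild type and 4.91 and 0.12 FPKM in GdX-deficient spleen at 90 min, and at 4.84 and 8.75 against 0.17 FPKM at 6 h. Its difference at 6 h was -2.69 (adjusted p = 0.0752, limma). Il17a stood at 1.20 and 2.14 FPKM in wild type at 6 h and was listed at 0 in the GdX-deficient library. In every one of these 5 lists, 0 genes passed for genotype at 90 min, for genotype with time as a covariate or for the difference of genotype effects between the times in limma. At 90 min 1 of their genes, Ciita, had an unadjusted p under 0.05, with a difference of 1.11, which was 0.47 without GdX-deficient replicate 2. Of the 9 genes of these lists that passed with time in wild type, 2 (Tbx21 and Cxcl9) passed with no filter on low values, and of the 4 that passed for genotype at 6 h, 0 did. After rescaling without globin genes 6 of the 9 and 1 of the 4, Ciita, passed. Leaving out wild-type replicate 1 or 2 at 90 min left 5 of the 9 past the threshold, without Cd74 (adjusted p = 0.0709 or 0.185) and Stat4 (0.259 or 0.208) in either case. Cd74 and Stat4 also missed it in limma in the fit of the 4 wild-type libraries alone (adjusted p = 0.0564 and 0.0511) and without either GdX-deficient library at 90 min. Stat4 missed it without wild-type replicate 1 at 6 h (adjusted p = 0.114), and Nfkbiz with a pseudocount of 0.1 (0.0539) and at a mean of at least 5 FPKM (0.0592). After quantile normalization Csf2 (adjusted p = 0.0908) and Nfkbiz (0.0675) missed it for time and Cxcl10 (0.0905) for genotype at 6 h. At a mean of at least 5 FPKM 2 of the 4 passed at 6 h, without Tbx21 (adjusted p = 0.051) and Il27ra (0.0509). Tbx21 was the gene of the 9 that passed for time in every setting run.

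**Figure D5:**
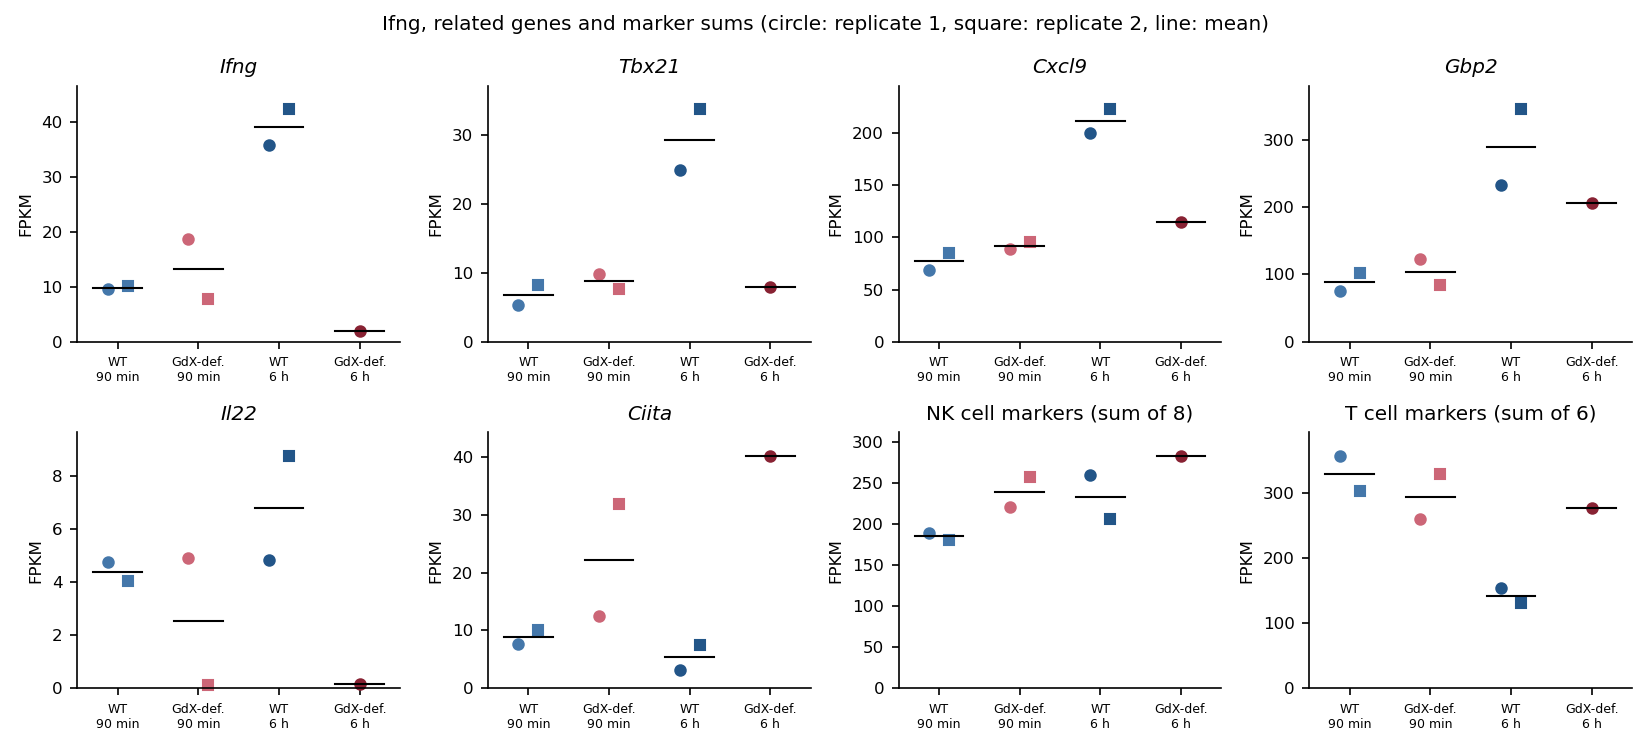
FPKM of Ifng, 5 genes related to it by the fixed lists, and the summed NK and T cell markers in each library; circles are replicate 1, squares are replicate 2 and lines are group means. In wild type at 6 h Ifng and Tbx21 are at their highest, and the GdX-deficient library at 6 h has 1.99 FPKM of Ifng beside summed NK markers of 283 FPKM.

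The genes whose pattern over the 7 libraries was most like that of a member were found by Pearson's r of log2(FPKM + 1) among 7838 genes. For Il12b they were Cd83 (r = 0.999), Maff (0.991) and Srgn (0.990), and Cd83 in wild type stood at 727 and 651 FPKM early and at 111 and 142 FPKM late. For Il27 they were Cd40 (0.990), D16Ertd472e (0.978) and Crem (0.963), for Ebi3 Rilpl2 (0.980), Aar2 (0.976) and Il10 (0.975), for Ifng Sytl3 (0.970), Tlcd1 (0.945) and Mnda (0.940), and for Il10 Ccl7 (0.994), Adm (0.984) and Batf (0.983). These values share the same 7 libraries and the library that stands apart, and are given without a test.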

How the data were processed

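RNA of 7 mouse spleens was sequenced. The authors deposited 1 table of FPKM values per gene and library, per the file headers, and all 7 FPKM columns were matched to a sample. HISAT, HISAT2 2.0.4, Bowtie2, RSEM and the build GRCm38.p5 are named in the submitters' processing notes without a role. Whether RNA was selected by poly(A) or by removal of ribosomal RNA is not given in the sources used here. Depth was estimated from the smallest steps between FPKM values of low genes and is approximate.

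The main test, on genes averaging at least 1 FPKM, was limma 3.58.1 (R 4.3.3) on log2(FPKM + 1), with a mean-variance trend, 1 coefficient per group over all 7 libraries, and Benjamini-Hochberg adjustment over all genes tested (threshold 0.05). The fits with time or genotype as a covariate were additive. The procedure was tested on simulated data. Replicates are separate mice by the design's count. The 10 genes and the lists of markers and related genes were chosen with earlier results of these data known. From each related list the genes past the threshold with the smallest p were named, up to 4, or else up to 2 with the smallest unadjusted p as values. Cxcl10, Ciita, Il22, Il17a and Tbx21 levels are given as examples, Il17a chosen after its values were seen. Alternatives were a pseudocount of 0.1, quantile normalization, no filter or a filter at a mean of 5 FPKM, rescaling to 1000000 without 12 globin genes, a replicate block, a fit of the libraries compared alone, and leaving out each library. The likeness of patterns was computed over genes with a mean of at least 5 FPKM, without immunoglobulin, T cell receptor and predicted genes.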

Additional observations from a re-analysis of the deposited data

Results flagged for a closer look

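The genotype effect was compared between 6 h and 90 min by the interaction term of the limma fit, on the log2(FPKM + 1) scale with 1 GdX-deficient library at 6 h. For 9 of the 54 tested genes among the members and related lists (16.7%) this term had an unadjusted p under 0.05, where 9.98% of all 11378 genes had one, and none of the 9 passed after Benjamini-Hochberg adjustment over all genes tested. For Ifng it was -4.03 (unadjusted p = 7.15e-05, adjusted p = 0.0626, limma). For Tbx21 it was -2.08 (adjusted p = 0.168, limma). The chemokine genes Cxcl9 and Cxcl10 had values of -1.14 and -1.34, and the feedback inhibitor Socs1 had -1.15, with adjusted p-values of 0.329, 0.447 and 0.48 in limma. Positive values were found for Ciita (1.67), Cd74 (1.38), Il27ra (1.48) and Maf (1.44), with adjusted p-values of 0.5, 0.418, 0.365 and 0.291 in limma. Groups of at most 2 libraries are too small for a check of single outlying samples.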

How the results depend on the processing

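Of 710 values of single members under an alternative, 633 kept their direction and side of the threshold, 36 kept direction and came to pass, 11 no longer passed and 30 changed sign. Counts of genes past the threshold in limma moved as follows, and the causes were not tested. Genotype at 90 min (2 genes) gave 181 genes and 2 members from the 4 libraries alone, and 2 to 183 genes and 0 to 2 members on leaving out 1 library. Genotype with time as a covariate (5 genes) gave 2 to 1674 genes and 0 to 4 members on leaving out 1 library, the most without GdX-deficient replicate 1 at 90 min. Time in wild type (1218 genes) gave 635 with no filter, 717 without globin genes and 450 to 1774 on leaving out 1 library. Time with genotype as a covariate (619 genes) gave 104 genes and 0 members with no filter, 297 genes without globin genes and 154 to 1204 on leaving out 1 library. Genotype at 6 h (450 genes) gave 90 genes and 0 members with no filter, 233 at a mean of at least 5 FPKM, 270 after quantile normalization, 241 without globin genes, and 627 to 3035 genes and 2 to 3 members on leaving out 1 library. The interaction (8 genes) gave 0 with a pseudocount of 0.1, 0 at a mean of at least 5 FPKM, 0 without globin genes, 3 with no filter, 4 after quantile normalization, and 0 to 238 genes and 0 to 1 members on leaving out 1 library.

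With the number in each title fitted as a replicate block, limma called 12 genes for genotype with time as a covariate, 2345 for time in wild type, 3383 genes and 3 members (Ifng, Il10, Il27) for genotype at 6 h, and 80 genes and 1 member (Ifng) for the interaction; Il12rb2 at 6 h became 0.20 and the Ebi3 interaction -0.14. Il10ra joined the called members for time in wild type, and Il10 for time with genotype as a covariate. The differences between replicates 1 and 2 correlated across genes at -0.12 (both genotypes at 90 min) and 0.0797 (GdX-deficient at 90 min and wild type at 6 h). Between the 2 times in wild type they correlated at 0.768, so that wild-type libraries with the same number shared differences. The numbers did not line up across the genotypes and were not taken to pair the samples. The main fits hold no term for the likeness in wild type, and its source was not tested.

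Members counted by whether libraries overlapped moved too, and so did the share of all genes that met the same rule, given here in parentheses. At 90 min those below wild type were 2 without globin genes (12.7%), 5 with no filter (20.9%) and 4 to 6 on leaving out 1 library (23.4% to 43.8%). Among the latter were 6 members and 29.9% without GdX-deficient replicate 1, and 5 members and 43.8% without replicate 2. Those above were 1 at a mean of at least 5 FPKM (20.8%), 1 after quantile normalization (26.2%) and 2 to 4 on leaving out 1 library (24.1% to 53.1%, with 4 members and 28.3% without GdX-deficient replicate 2). Those at least 2-fold lower at 6 h were 5 with a pseudocount of 0.1 (6.35%), 5 after quantile normalization (7.74%) and 3 to 5 on leaving out 1 library (5.41% to 7.77%, with 5 members and 5.41% without wild-type replicate 1 at 6 h). Between the times in GdX-deficient spleen, those lower were 2 to 5 on leaving out 1 library (1.2% to 2.91%) and those higher were 0 after quantile normalization (2.3%).

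Signs changed for the following members. Quantile normalization gave 0.13 for Il10ra at 90 min, -0.21 for Il12rb1 with time as a covariate and -0.01 for the Ebi3 interaction, and rescaling without globin genes gave 0.20 for Il10ra at 90 min and 0.09 for Il12rb2 at 6 h. On leaving out 1 library, genotype at 90 min ranged from -1.51 to 0.37 for Il27, -0.29 to 0.87 for Ifng and -0.16 to 0.14 for Il10ra. Genotype with time as a covariate ranged from -0.23 to 0.37 for Il12rb1, -2.01 to 0.29 for Ifng (0.29 without the GdX-deficient library at 6 h) and -0.01 to 0.27 for Il10ra. Time in wild type ranged from -0.12 to 0.39 for Il12a and -0.14 to 1.29 for Il12rb2, which passed without wild-type replicate 1 at 6 h. Time with genotype as a covariate ranged from -0.30 to 0.13 for Il12a, -0.18 to 0.58 for Il12rb2 and -0.19 to 1.89 for Ifng, which passed without the GdX-deficient library at 6 h. Genotype at 6 h ranged from -0.86 to 0.57 for Il12rb2. The interaction ranged from -0.32 to 2.75 for Il12b, -0.57 to 0.67 for Ebi3 and -1.34 to 0.82 for Il10. At the estimated depth, Il23a at 6 h and Il10 and Ifng in the GdX-deficient library at 6 h rest on few fragments.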
